A study of Mus musculus with 2 samples.

Results

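The T-box family of transcription factors was examined in E14TG2a mouse embryonic stem (ES) cells through 9 genes: T (brachyury), Eomes, Tbx1, Tbx2, Tbx3, Tbx4, Tbx5, Tbx6 and Tbx20. They were taken by gene symbol from a table of 28592 genes, and all 9 had a row. E14TG2a is an established Hprt-deficient line, grown here as the label "ground state" in 2i/LIF conditions, which inhibit MEK and GSK3 and supply leukaemia inhibitory factor. The series has 1 group of 2 replicates, and ribosomal RNA was depleted from total RNA before strand-specific libraries were made. No other genotype, treatment or time was included, so the levels below are descriptions within 1 cell state and no test between conditions was possible. Whether the replicates came from separate cultures is not labelled, and the spread between them may therefore be technical.

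T-box factors bind DNA through a shared domain, the T-box, and many of them specify tissues in the embryo in a dose-sensitive way. T and Eomes act in the primitive streak, where mesoderm and endoderm form, and T responds to Wnt signalling through TCF/LEF factors and beta-catenin. Tbx3 differs from most of the family in that it is also known as a support of naive pluripotency in mouse ES cells. In bulk RNA, a low level in every cell and a high level in a few cells cannot be told apart.

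Levels are FPKM (sequenced fragments corrected for transcript length and for library size), which are per length and so can be set side by side between genes. Values are given for replicates 1 and 2, then as the mean ± SD (n = 2), and detected means 1 FPKM or more in each of the replicates. FPKM summed to 946498 and 928174 over all genes, and the read depth behind them is unknown. The ES cell label was checked on 14 genes of the naive network: all 14 were detected, from Pou5f1 at 976 ± 40.8 down to Klf5 at 9.57 ± 1.32, with a list median of 31.4.

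Only Tbx3 and T of the 9 members were detected (22.2%). Over all genes in the table the detected share was 39.4%, and over protein-coding genes it was 50.6%. The other 7 members lay below 1 in both replicates, and the median over the 9 was 0.113, against 0.233 over all genes and 1.22 over protein-coding genes. That median is the level of Tbx4 alone, and it was 0.0660 in replicate 1 and 0.160 in replicate 2. With lower limits the count of members was 3 at an FPKM of at least 0.5, where Eomes joined (43.6% of all genes), and 4 at 0.1, where Tbx6 joined (52.9% of all genes). At a limit of 5 the same pair, Tbx3 and T, remained (28.1% of all genes).

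**Figure D1:**
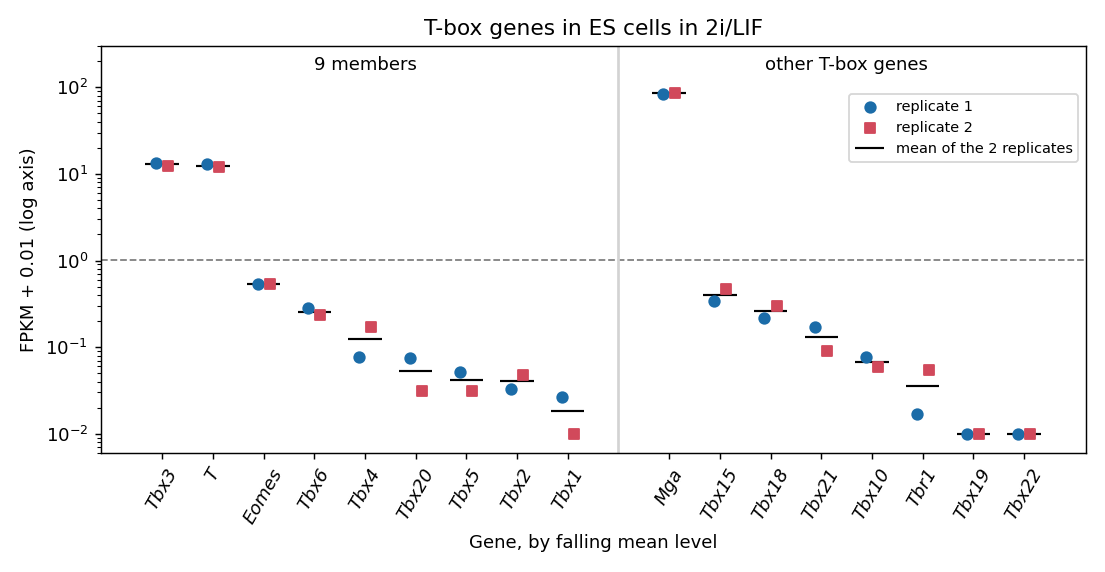
FPKM + 0.01 on a log axis for the 9 members and the 8 other T-box genes, each by falling mean level, with circles for replicate 1, squares for replicate 2 and a bar for their mean. The dashed line marks an FPKM of 1; Tbx3, T and Mga lie above it, and genes listed at 0 sit at 0.01.

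The T gene encodes brachyury, which drives mesoderm and notochord formation. RefSeq places it on chromosome 17, from 8434423 to 8442496 (GRCm38.p6). T (ENSMUSG00000062327.9) was at 12.9 and 11.9 FPKM, a mean of 12.4 ± 0.733. Both replicates were above those of all other members except Tbx3, and this mean exceeded that of 73.5% of protein-coding genes. T was 24.6 and 22.9 times as high as Eomes in replicates 1 and 2, and 47.3 and 53.6 times as high as Tbx6.

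Eomes, the T-box factor of definitive endoderm, early cardiac mesoderm and trophoblast, lies on chromosome 9, from 118478186 to 118486132. It was at 0.527 and 0.520 FPKM, a mean of 0.523 ± 0.00488. Its replicate values were close to each other and below the detection limit. Tbx6, which directs presomitic mesoderm away from a neural fate, lies on chromosome 7, from 126781483 to 126785548. It stood at 0.273 and 0.222, a mean of 0.248 ± 0.0364. The replicate ranges of T, Eomes and Tbx6 did not overlap, so these streak and mesoderm factors could be ordered within these libraries.

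The stretches of sequence just before T and Eomes are shown because T was detected and Eomes, the other streak factor, was not. They are the 250 bases before the start in RefSeq's promoter table for GRCm38.p6, on the plus strand, at chr17:8434173-8434422 for T and chr9:118477939-118478188 for Eomes. Capitals mark matches to TCAAAG, the core of a TCF/LEF motif, or to AGGTGT, the core of a T-box motif. Both strands were searched (CTTTGA and ACACCT are the reverse complements), and the motifs do not overlap in these windows.
T: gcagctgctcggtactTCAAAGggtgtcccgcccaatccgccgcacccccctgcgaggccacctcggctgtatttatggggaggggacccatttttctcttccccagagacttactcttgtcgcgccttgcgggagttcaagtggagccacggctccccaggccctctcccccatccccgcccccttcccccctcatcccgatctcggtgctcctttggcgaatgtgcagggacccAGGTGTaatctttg
Eomes: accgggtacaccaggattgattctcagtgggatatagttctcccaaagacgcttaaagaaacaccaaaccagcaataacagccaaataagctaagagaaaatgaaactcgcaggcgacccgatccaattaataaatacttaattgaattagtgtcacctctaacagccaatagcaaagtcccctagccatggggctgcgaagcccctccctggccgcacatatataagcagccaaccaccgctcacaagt

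The T window had 1 match to TCAAAG, beginning 234 bases before the start, and 1 match to AGGTGT, beginning 14 bases before it. The Eomes window had no match to either. Among 32851 windows of the same length, 13.8% held the TCF/LEF letters and 11.8% the T-box letters. A match describes the letters and does not show a bound site. Promoters were found for 6 of the 9 members, in 7 windows, and Tbx2, Tbx3 and Tbx5 had no entry. Besides T, 1 of the 2 Tbx1 windows held AGGTGT, 76 bases before the start, and no other member window held TCAAAG. Among the other T-box genes, Tbr1 and a Tbx22 window also held the TCF/LEF letters on either strand. Neither Tbr1 nor Tbx22 was detected, so the match was not particular to T. The GC content of the member windows ran from 46.4% for Eomes to 68.8% for Tbx20, against a median of 52.4% over all windows. T, with 62.8% GC and 14 CpG dinucleotides, lay between Tbx6 (59.6% and 6) and Tbx20 (68.8% and 22). Neither measure set T apart from members that were not detected. The Tbx4 window and 1 Tbx1 window lie inside the spans of their own genes. The T window lies inside the span of LOC115486424, on the same strand. The Eomes window lies inside the span of Gm33408, and both Tbx1 windows inside that of Gm35369, in each case on the opposite strand. The end of the Eomes window also runs a few bases into the span given for Eomes.

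Tbx3, a repressor that also belongs to the naive pluripotency network, was detected at a level close to that of T. It lies on chromosome 5, from 119670534 to 119684724. Tbx3 (ENSMUSG00000018604.17) was at 13.3 and 12.4 FPKM, a mean of 12.9 ± 0.618. The range of its replicates overlapped that of T, and the log2 ratio of T to Tbx3 was -0.04 and -0.06 in replicates 1 and 2, a mean of -0.05 ± 0.02 (SD, n = 2). Tbx3 was thus slightly higher than T within each library, by less than the SD of either gene's level. That SD includes a shift between libraries that both genes share, so it does not measure this difference. With 2 replicates and so small a ratio, the pair was not ordered. Nanog, a central factor of the same network, was 20.1 and 21.7 times as high as Tbx3. All but 3 of the 14 naive network genes had a mean above that of Tbx3, the exceptions being Klf4 (12.5 ± 1.57), Gbx2 (10.2 ± 0.341) and Klf5.

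The genes with levels most like T and Tbx3 were sought among 142 genes of the related lists, by Euclidean distance over the 2 replicate values of log2(FPKM + 1). The same 3 genes were nearest to both: the corepressor gene Tle4 (11.9 ± 0.341), the naive factor Klf4, and the kinase gene Gsk3a (13.1 ± 0.213). Their distances were 0.09 to 0.11 from T and 0.05 to 0.15 from Tbx3. With 2 samples of 1 state this measures only similar level, not a shared pattern.

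Tbx2 is a repressor close in sequence to Tbx3, Tbx4 acts in the hindlimb and Tbx5 in the forelimb and heart. Together with Tbx3 these genes form linked pairs: Tbx3 and Tbx5 lie 112 kb apart on chromosome 5, and Tbx2 and Tbx4 lie 44.4 kb apart on chromosome 11. Tbx5, from 119796514 to 119885220, was at 0.0417 and 0.0208 FPKM. Tbx3 was therefore 319 and 598 times as high as its linked neighbour in replicates 1 and 2, a log2 ratio of 8.77 ± 0.64. Tbx2, from 85832615 to 85841948, was at 0.0228 and 0.0379, and Tbx3 was 584 and 328 times as high as it. Tbx4, from 85886367 to 85916097, was at 0.0660 and 0.160, and was 2.42 times as high in replicate 2 as in replicate 1. Within this subfamily only Tbx3 was detected. The replicate ranges of Tbx5 and Tbx2 overlapped, while that of Tbx4 lay above both.

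**Figure D2:**
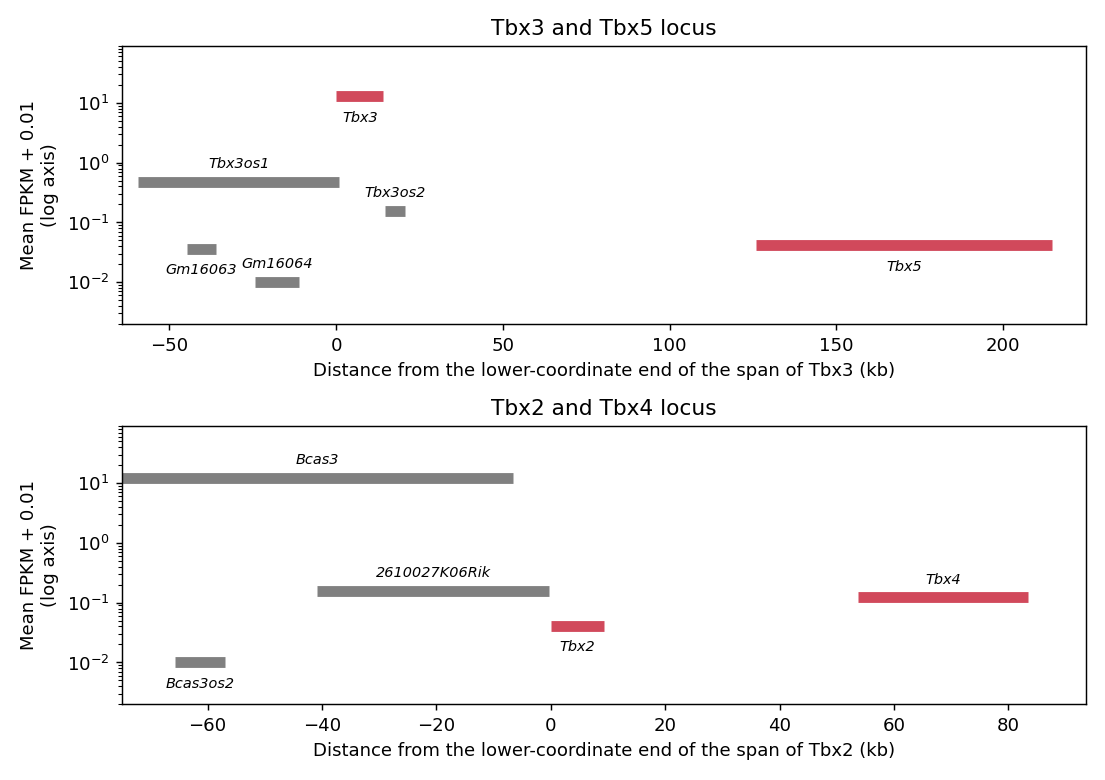
Mean FPKM + 0.01 (log axis) of the measured genes at the loci of Tbx3 and Tbx5 (top) and Tbx2 and Tbx4 (bottom), against distance in kb from the lower-coordinate end of Tbx3 or Tbx2. Each bar covers a gene's RefSeq span, red for T-box genes and grey for others, with Bcas3 cut at the left edge; Tbx3 stands far above Tbx5 and above both its opposite-strand lncRNA genes.

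Genes around the members were examined because the series was made to profile long non-coding RNAs (lncRNAs), and because overlapping genes can share reads. The lncRNA gene Tbx3os1, on the opposite strand, overlaps the start of Tbx3 in the RefSeq map. It was at 0.458 and 0.479 FPKM, so Tbx3 was 29.0 and 25.9 times as high. Tbx3os2, on the minus strand with its 3′ end 364 bases beyond the span of Tbx3, was at 0.137 and 0.160. Neither lncRNA was detected. Use of strand by the quantification is not stated, so how reads were divided where Tbx3 and Tbx3os1 overlap is uncertain. The span of the lncRNA gene 2610027K06Rik lies 227 bases from that of Tbx2, and its level was 0.0685 and 0.228.

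T2, a neighbour of T in the t-complex region with a span 11.7 kb away, was at 0.722 and 0.647 FPKM. T was 17.9 and 18.4 times as high as T2, which was not detected. Platr11, the measured lncRNA nearest to Eomes on its lower-coordinate side, was at 0.433 and 0.440, close to the level of Eomes itself. On the other side, Golga4, 20.1 kb away, was at 22.3 ± 0.403. Ppp4c, a phosphatase gene on the strand opposite to Tbx6, has its 3′ end 318 bases beyond the end of Tbx6 and was at 177 and 162. Ppp4c was thus 648 and 730 times as high as Tbx6, and whether fragments from Ppp4c contributed to the low value of Tbx6 was not tested. Around the remaining members, Gnb1l beside Tbx1 was at 7.54 and 6.46, Brip1 beside Tbx4 at 5.04 ± 1.07 and Herpud2 beside Tbx20 at 1.47 ± 0.0525, while Dpy19l2, 4930588K23Rik, Gm16064 and Gm38554 were listed at 0 in both replicates. Ypel3 before Tbx6 was at 7.11 ± 1.83 and Pde10a after T at 0.547 ± 0.191. The RefSeq spans of LOC115486424, Gm33408, Gm35369 and Gm5563 also overlap T, Eomes, Tbx1 and Tbx5 in that order, and these genes were not analysed here.

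Tbx1 and Tbx20, members of another branch of the family, were both below 0.1 FPKM in each replicate, and Tbx1 was the lowest member. Tbx1, known for pharyngeal arch and outflow tract development, lies on chromosome 16, from 18580979 to 18590671. It was at 0.0165 in replicate 1 and listed at 0 in replicate 2, the only member with a value of 0. Tbx20, a heart factor on chromosome 9 from 24720812 to 24774303, was at 0.0654 and 0.0208. The range of Tbx20 overlapped those of Tbx5 and Tbx2, and these 3 genes could not be ordered. Tbx4 lay above Tbx20 in both replicates, but by a factor of only 1.01 in replicate 1.

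The precision of these levels fell with the level. For genes at a mean FPKM of 5 to 20, the class of T and Tbx3, the median absolute log2 ratio between replicates was 0.09, and that of 90% of genes lay below 0.27. T and Tbx3 had log2 ratios of replicate 2 to replicate 1 of -0.12 and -0.10. At 0.1 to 1 the median absolute ratio was 0.44, and Eomes at -0.02, Tbx6 at -0.30 and Tbx4 at 1.28 were in this class. Below 0.1 the median was 0.89 over genes above 0 in both replicates, and Tbx2 at 0.73 and Tbx20 at -1.65 lay within the 90% value of 2.12, as did Tbx5, whose level in replicate 2 was 0.499 times that in replicate 1. In all, 7 members were lower and 2, Tbx2 and Tbx4, were higher in replicate 2. Over all genes, 10041 were lower and 10541 were higher in replicate 2.

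**Figure D3:**
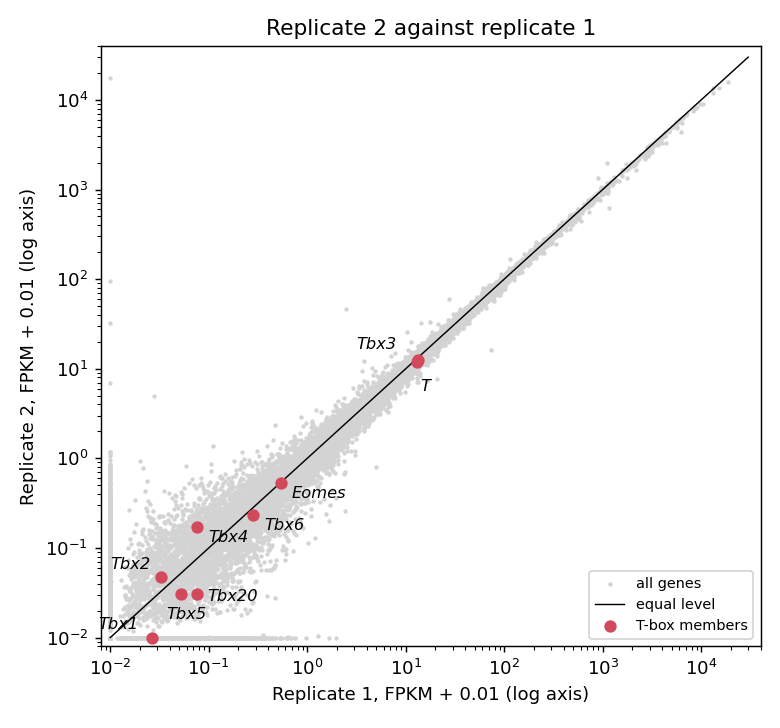
FPKM + 0.01 in replicate 2 against replicate 1, on log axes, for all 28592 genes (grey) and the 9 members (red), with a line of equal level. T and Tbx3 lie together near the line where the cloud is narrow, whereas Tbx20, Tbx5, Tbx2 and Tbx1 lie where it is broad.

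The 8 other T-box genes were also mostly below the limit. Mga, whose protein carries a T-box and also pairs with Max, was at 84.7 and 86.2 FPKM. It was the only one of the 8 detected and was 6.55 and 7.24 times as high as T in the 2 replicates. Tbx15 (0.332 and 0.456), Tbx18 (0.209 and 0.290), Tbx21 (0.159 and 0.0795), Tbx10 (0.0662 and 0.0496) and Tbr1 (0.00689 and 0.0447) were below the limit. Tbx19, the pituitary factor closest to T in the family, and Tbx22, a palate factor, were listed at 0 in both replicates. Across all 17 T-box genes, 3 were detected (17.6%), beside 39.4% of all genes. Counted the same way, 5 of 19 Sox genes, 13 of 17 Klf genes and 3 of 39 Hox genes were detected, and no test between these families was made.

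Feeder fibroblasts are a possible other cell type in ES cultures, so fibroblast markers were set beside the T-box genes. Of the 17 T-box genes 6 were higher in replicate 2 (Tbx2, Tbx4, Tbx15, Tbx18, Tbr1 and Mga) and 9 were lower. Over all genes, 10541 were higher in replicate 2 and 10041 were lower. None of 14 fibroblast markers was detected, and 11 of them were higher in replicate 2. Their summed FPKM was 1.12 in replicate 1 and 4.33 in replicate 2, with the collagen gene Col1a2 at 0.0101 and 0.917 and Col3a1 at 0.0481 and 0.809. Postn, Dcn, Acta2 and Fap were listed at 0 in replicate 1, and Lum in replicate 2. The part of such cells in the levels of the T-box genes was not tested. Of 10 primitive endoderm markers, only the laminin genes Lama1 (16.2 ± 0.366) and Lamb1 (6.73 ± 0.199) were detected. The FPKM of all 10 markers summed to 23.3 in replicate 1 and 24.5 in replicate 2. The defining factor Gata6 was listed at 0 and at 0.0173.

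Most listed genes of Wnt and Nodal signalling, the pathways known to induce T and Eomes, were detected. The background shares were 39.4% of all genes and 50.6% of protein-coding genes. Of 13 genes of the Wnt pathway 10 were detected (76.9%), with a median of 12.9. Among the TCF/LEF genes, Tcf7 was detected (4.28 and 3.75), but Tcf7l1 (0.861 and 1.36), Lef1 (0.625 and 0.982) and Tcf7l2 were not. The list mixes genes of different roles and holds no Wnt ligand, and activity of the pathway was not tested. Beta-catenin, encoded by Ctnnb1, led them at 405 ± 3.45, and the lowest was the TCF gene Tcf7l2 at 0.613 ± 0.0797. The Wnt target and feedback gene Axin2 was at 20.4 and 18.3, which was 1.58 and 1.54 times T. Sp5, another Wnt target, was at 14.6 and 11.3, and its order against T turned between the replicates (1.13 and 0.946 times T). The ligand genes Wnt3 (0.235 and 0.199) and Wnt3a (0.0305 and 0.0406), placed in the streak and somite lists, were not detected. Among 13 genes of the Nodal pathway 11 were detected (84.6%), with a median of 22.1. The coreceptor gene Tdgf1 was at 210 ± 6.88 and the antagonist gene Lefty2 at 193 ± 26.7. The receptor gene Acvr1c was at 0.00636 and 0. Nodal itself was at 37.3 and 34.3, so it was 70.9 and 65.9 times as high as Eomes, which it is known to induce in the epiblast.

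**Figure D4:**
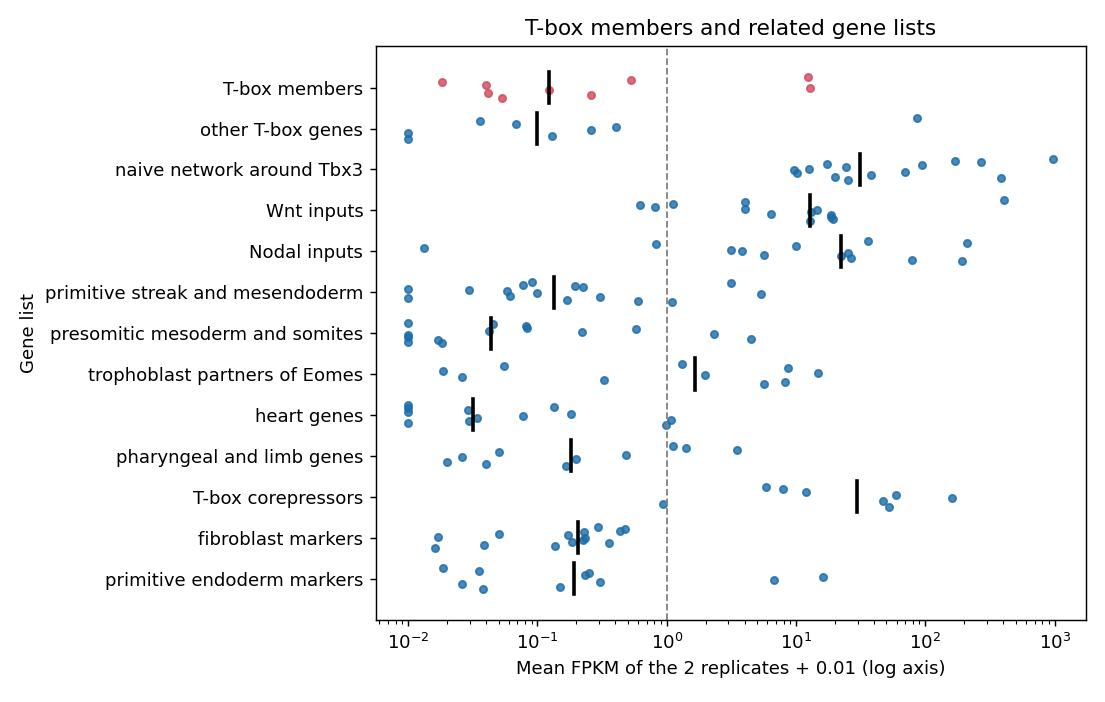
Mean FPKM of the 2 replicates + 0.01 (log axis) for each gene of the T-box members (red) and of 12 related lists (blue), with a black bar at each list's median and a dashed line at an FPKM of 1. The naive network, Wnt, Nodal and corepressor lists have medians of 12.9 to 31.4, whereas the streak, somite and heart lists have medians of 0.0219 to 0.124.

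The streak, somite and heart lists hold genes that act in the embryo upstream of the T-box factors, with them or downstream of them. They were mostly below the limit, beside the 39.4% of all genes and 50.6% of protein-coding genes detected. In the list of primitive streak and mesendoderm genes 2 of 16 were detected (12.5%), and the list median was 0.124. The 2 were the homeobox genes Cdx1 (5.35 ± 0.504) and Gsc (3.15 ± 0.399). Lhx1 and Cer1 were listed at 0 in both replicates. Of 14 genes of presomitic mesoderm and somites, where T and Tbx6 act, 2 were detected (14.3%). They were Tcf15 (5.38 and 3.53) and Ripply1 (1.38 and 3.28), with Msgn1 listed at 0 and a list median of 0.0340. None of 12 heart genes, the setting of Tbx5 and Tbx20, was detected. Tnnt2, a sarcomere gene, was highest at 1.24 and 0.904, followed by Smyd1 at 0.897 and 1.05, and Nkx2-5 was listed at 0 in both replicates. The heart list median of 0.0219 rests on values near 0, and it was 0.0390 in replicate 1 and 0.0109 in replicate 2.

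Of 10 trophoblast genes linked to Eomes 6 were detected (60%), with a median of 1.63. Krt8, a keratin, was at 14.9 ± 0.781 and the transcription factor gene Tfap2c at 8.60 ± 0.304, while Gata3 was listed at 0 and at 0.0172. Of 10 pharyngeal and limb genes, the setting of Tbx1 and Tbx4, 3 were detected (30%). Among them were Eya1 (3.49 ± 0.396) and the limb growth factor gene Fgf10 (1.10 ± 0.0968). Shh was lowest, listed at 0 and at 0.0196. With 10 genes in each, the shares of these 2 lists lie near the backgrounds of 39.4% and 50.6%. They are therefore not read as results about the lists. Of 8 corepressors that T-box factors can recruit, 7 were detected (87.5%), with a median of 29.4. The histone deacetylase genes Hdac2 (160 ± 0.107) and Hdac1 (59.6 ± 2.24) led them. Over the 142 genes of all the related lists 58 were detected. That share was close to the 39.4% of all genes and below the 50.6% of protein-coding genes.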

How the data were processed

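The authors deposited 1 table of FPKM, 1 column for each replicate and 1 row for each Ensembl gene. The tools CASAVA, TopHat2 and Cufflinks and the builds mm10 and GRCm38 are named, per the submitters' processing notes. The sources used here give no versions, annotation release, strand setting or further scaling. Because a 0 from Cufflinks may be an estimate that failed, such genes are described as listed at 0.

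Columns were matched to replicates by the sample descriptions. Symbols were matched by stable identifier (28256 of 28592 genes), and types, spans and promoters came from RefSeq on GRCm38.p6, by exact symbol (20331 protein-coding genes). Levels were used as deposited, with numpy 2.4.6 and pandas 2.3.3. No test was made, since there is 1 group. A simulated table was used to check only the detection rule and log2 ratios computed within that check. The other steps were not tested on simulated data. Members, lists and rules were chosen with earlier results of these data known. The named genes are the 9 members, the other T-box genes, the neighbours, the 3 listed genes nearest in level to each member at a mean of at least 1, and, per list, the 2 highest and the lowest genes (ties by list order), plus all detected ones where these were 5 or fewer. Of these, 2 genes are not reported here. Genes named outside that rule were chosen after their values were seen. They include Nanog, Sp5, Nodal, Gbx2, Tcf7, Tcf7l1, Lef1, Wnt3, Wnt3a, Cer1, Postn, Dcn, Acta2 and Lum. The Sox, Klf and Hox families were chosen in the same way.

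Depth in reads is unknown. Of 2288 genes at a mean below 0.1 and above 0 in both replicates, 66.8% had replicate values in a ratio of whole numbers no larger than 8, with a tolerance of 0.01 on the log2 scale. That share was highest for a read worth the same in both libraries, against a median of 10.8% over 101 relative worths tried.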

Additional observations from a re-analysis of the deposited data

How the results depend on the processing

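The count of detected members was 2 in the main analysis, 4 at an FPKM limit of 0.1, 3 at 0.5 and 2 at 5, and it was 2 without replicate 1 or without replicate 2. Without 1 replicate the median level of the members ranged from 0.0660 to 0.160, since it is the level of Tbx4, and it was 0.121 after rescaling to TPM. The log2 ratio of T to Tbx3 was -0.0473 and -0.0507 with pseudocounts of 1 and 0.1, which cannot change its sign. Without 1 replicate it ranged from -0.0623 to -0.0399, which are the ratios of the single replicates. The median log2 replicate ratio of the members was -0.109, and -0.0292, -0.120 and -0.105 with a pseudocount of 1, a pseudocount of 0.1 and centred replicates. Rescaling to TPM multiplies all genes of a library by the same factor. It moved T to 13.25, Tbx3 to 13.7 and Eomes to 0.558, by more than the SD of each, without changing which were detected. Whether a level moved by more than its SD therefore depends on how small that SD is. Of the 142 listed genes 86, 67 and 45 were detected at limits of 0.1, 0.5 and 5. The shares of all genes at these limits were 52.9%, 43.6% and 28.1%. Without 1 replicate, 59 to 61 of the listed genes were detected. No paired analysis was possible because there is only 1 group. The unknown depth limits the 5 lowest members most.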

Other observations

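Several of the lowest T-box values stood in ratios of small whole numbers between the replicates. The same held for 66.8% of the 2288 genes at a mean below 0.1 and above 0 in both replicates. It was thus not particular to T-box genes. Replicate 2 to replicate 1 was 5 to 3 for Tbx2, 1 to 2 for Tbx5 and 3 to 4 for Tbx10, each within 0.01 log2 units, while Tbx20 and Tbr1 did not come within that tolerance of any ratio of whole numbers up to 8. Tbx21, at a higher level, had a ratio of replicate 1 to replicate 2 of 2.00. Tbx4, at a similar level to Tbx21, had a ratio of replicate 2 to replicate 1 of 2.42.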
